A study of Mus musculus with 112 samples.

Results

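Chemokines and their receptors were followed here through mouse skin carcinogenesis. The members were all genes whose symbol in the array annotation begins with Ccl, Cxcl, Cx3cl, Xcl, Ccr, Cxcr, Cx3cr, Xcr or Ackr followed by a digit, taken from probe sets with 1 symbol and, for genes with several such sets, from the set with the highest mean. This gave 55 of 18772 genes: 34 ligands, 18 signalling receptors and 3 atypical receptors. A filter on low values, used only as an alternative, was passed by 52 members and not by Ccl26, Ccr10 and Cxcl15. Ccl19 was measured by 5 probe sets and has near-identical gene copies in the mouse, so its value is uncertain. Ccl21a, Ccl21b, Ccl21c, Ccl27a and Ackr4 shared probe sets with other symbols and were not analysed here.

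The samples were 112 arrays from 15 male FVBBX mice, the offspring of Mus spretus and FVB hybrids crossed to FVB. All of them were given DMBA, a mutagen, once (25 mg) when 8 weeks old, followed by 200 uL of the tumour promoter TPA 2 times per week, so the skin also came from treated animals and no untreated skin was analysed here. Primary tumours above 1 cm were removed by surgery, and metastases were sampled when the mice were killed. There were 9 wild-type (WT) mice and 6 with an allele labelled only HrasKO, whose target gene was not analysed here. The groups were dorsal skin (15 arrays, 15 mice), papilloma (27 arrays, 13 mice), squamous cell carcinoma (SCC; 10 arrays, 8 mice, all WT), spindle carcinoma (12 arrays, 6 WT and 4 HrasKO mice), SCC metastasis (24 arrays, 11 mice) and spindle metastasis (20 arrays, 7 mice). Mixed carcinomas (3 arrays) and a mixed metastasis (1 array) entered no comparison of histologies. Metastases came from lymph node, lung, liver, spleen, thymus, kidney and a site labelled dorsal, and the mixed one, from lung, was left out of the comparison of sites.

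The mouse was the replicate: the deposited log2 intensities of 1 mouse and group were averaged first. Differences are log2 differences between such means with their standard error (SE), and a change was called where limma's Benjamini-Hochberg adjusted p over all 18772 genes was under 0.05. Where members with an unadjusted p under 0.05 are counted, the share of all genes under it is not given here. Such counts are thus no comparison with other genes, and the percentages beside them are for adjusted p. Levels are given per gene and were not compared between genes, since probe sets differ in brightness. Ranges, medians and marker means of a group cover all its mice, unless a genotype is named. They thus include mice that do not enter a paired difference. These are bulk tissues, in which fewer cells of a type and less RNA per cell cannot be told apart.

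Before the results, 12 arrays of 8 mice stood apart from their labels in their correlation over all genes. They were 5 papillomas (4 nearest to the spindle mean and 1 nearest to skin), 6 SCC metastases nearest to the spindle mean and 1 spindle carcinoma, of mouse 1949, nearest to the papilloma mean. Keratinocyte markers averaged 9.98 to 11.59 in skin and 10.98 to 11.60 in SCC carcinomas. They averaged 5.60 to 7.23 in spindle metastases but 6.00 to 11.45 in spindle carcinomas, with the highest value in mouse 1949. Without these arrays no member was called between genotypes in papilloma or spindle carcinoma, and the other counts without them are given beside each result that they touch. The arrays were picked by the same values that are then tested between these classes, and leaving them out can widen such differences. Counts without them are therefore descriptions and no independent support. Counts of members in this or any other alternative setting are given without the share of all genes called in that setting. They are thus no comparison with other genes.

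Chemokines are small secreted proteins that direct the movement of leukocytes along concentration gradients and act on receptors that couple to G proteins. CXC ligands such as Cxcl1, Cxcl2 and Cxcl5 act on CXCR2 and draw neutrophils, the CC ligands of CCR2 draw monocytes, and Ccl19 and Cxcl13 organise lymphocytes in lymphoid tissue. Atypical receptors bind chemokines without that coupling and take them up. In the TPA model of skin, the CXCR2 pathway is known for its part in inflammation during promotion.

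Promoter sequences are shown for the CXCR2 ligands because this group had the largest rises in papillomas. RefSeq entries (assembly GRCm38.p6; 250 bases before to 50 bases after the start) were found for 41 of the 55 members. The letters of an NF-kB motif, GGAATTTCC, were searched on both strands and occurred in 5 of these members (12.2%), against 103 of 27025 genes (0.381%). The 5 were Cxcl1, Cxcl2, Cxcl3, the interferon-induced ligand Cxcl10 and the eotaxin receptor Ccr3. The 100 bases before the start are printed 5′ to 3′ on the plus strand, with the motif in capitals.
Cxcl1, chr5:90891145-90891244: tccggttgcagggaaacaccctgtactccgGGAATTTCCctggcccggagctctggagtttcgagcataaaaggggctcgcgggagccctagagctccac
Cxcl2, chr5:90903799-90903898: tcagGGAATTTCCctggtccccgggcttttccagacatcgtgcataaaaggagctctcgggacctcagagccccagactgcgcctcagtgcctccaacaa
Cxcl3, chr5:90786001-90786100: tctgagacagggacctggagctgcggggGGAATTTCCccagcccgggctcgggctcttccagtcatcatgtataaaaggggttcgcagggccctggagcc
Cxcl15, chr5:90794434-90794533: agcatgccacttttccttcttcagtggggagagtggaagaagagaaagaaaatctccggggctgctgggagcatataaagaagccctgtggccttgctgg
The motif began 70 bases before the start in Cxcl1, 96 in Cxcl2 and 72 in Cxcl3. These ligands are paralogs with related promoters, so their matches are not independent of each other. Cxcl15, whose start lies between those of Cxcl3 and Cxcl1 on the same chromosome, did not have these letters in its window. Its level in papillomas is given below. Cxcl5, which rose in papillomas, had no promoter entry and is missing from this set. Cxcl10 and Ccr3 hold the letters but were not called in papillomas, and a link between the motif and the changes was not tested. The AP-1 letters TGAGTCA, which do not overlap this motif, occurred in 5 members (12.2%; Ccl28, Ccr3, Ccr4, Cxcl9 and Cxcl10) against 5.95% of genes. A match of letters is a description and shows no binding.

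Papillomas differed from skin of the same mice by a strong rise of CXCR2 ligands and of Ccl3 and Ccl4, and by a fall of Cxcl13, Ccl19 and Cxcl12 and of all 3 atypical receptors. Of the 55 members, 29 (52.7%) were called over 13 mice, 16 higher and 13 lower. The background was high: 42.6% of all genes were called, 24.5% higher and 18.1% lower. The median difference was 0.039 over the members and 0.045 over all genes. The count was 31 without the arrays that stood apart, and the share of all genes called in that setting is not given here.

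Among CXCR2 ligands, 4 of 5 rose. Cxcl2 (MIP-2) ranged from 4.08 to 7.77 in skin (median 5.37) and from 7.06 to 11.62 in papillomas (median 9.58). Its difference was 4.03 (SE 0.436, limma adjusted p = 9.04e-06), and it was higher in all 13 mice although the ranges met. Cxcl5, another neutrophil attractant, lay between 3.99 and 5.72 in skin (median 4.48) and between 5.32 and 10.47 in papillomas (median 8.00). It rose by 3.21 (SE 0.423, limma adjusted p = 4.1e-05), again in 13 of 13 mice. Cxcl3 was at a narrow low level in skin, 5.10 to 5.54, and all papilloma means lay above it, from 5.85 to 9.90, with a difference of 2.32 (SE 0.33). Cxcl1 (KC) rose by 1.59 (SE 0.231), from 5.72 to 7.69 in skin (median 6.18) to 6.67 to 9.77 in papillomas (median 7.88). Cxcl15, a ligand known from lung, was near the lower end of the array's range in both tissues, with means of 3.58 and 3.71 (limma adjusted p = 0.0951).

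**Figure D1:**
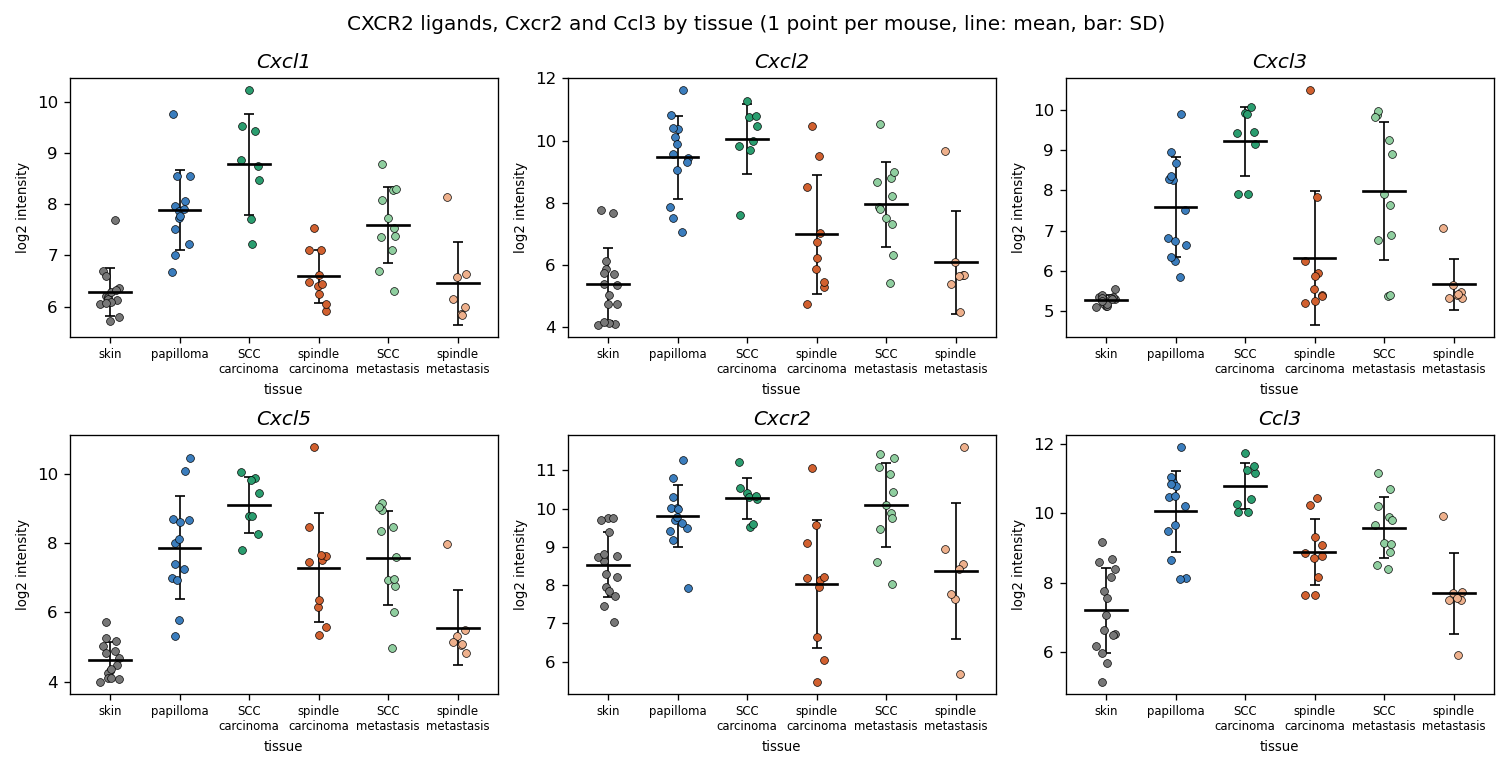
Log2 intensity (vertical axis) of the CXCR2 ligands Cxcl1, Cxcl2, Cxcl3 and Cxcl5, of the receptor Cxcr2 and of Ccl3 in 6 tissues (horizontal axis); each point is the mean of 1 mouse, lines are group means and bars are SD. Cxcl3 lies between 5.10 and 5.54 in all skins and between 7.91 and 10.09 in all SCC carcinomas, while spindle carcinomas spread from 5.18 to 10.50.

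The receptors of these ligands also rose. Cxcr2, carried by neutrophils, moved from a skin range of 7.05 to 9.75 (median 8.64) to 7.92 to 11.28 in papillomas (median 9.78). Its difference of 1.19 (SE 0.342, limma adjusted p = 0.0116) was present in 11 of 13 mice, and the groups overlapped widely. Cxcr1 rose by 0.48 (SE 0.103). Neutrophil markers moved with this group: 5 of 6 rose (median difference 2.60), and their mean level was 4.67 to 7.43 in skins and 7.48 to 10.10 in papillomas. Trem1 rose by 3.21, S100a8 by 2.89 and Csf3r by 2.07, and Mmp8 was the one not called. The part of neutrophil content in the rise of the ligands and receptors was not tested.

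Of the 5 inflammatory CC ligands Ccl3, Ccl4, Ccl5, Ccl6 and Ccl9, 2 rose. Ccl3 (MIP-1 alpha) ranged from 5.12 to 9.18 in skin (median 7.05) and from 8.10 to 11.91 in papillomas (median 10.47), a difference of 2.85 (SE 0.448, limma adjusted p = 0.000171) seen in 11 of 13 mice. Ccl4 (MIP-1 beta) rose by 1.42 (SE 0.22) in all 13 mice. Ccr1, a receptor of Ccl3 found on neutrophils and monocytes, rose by 2.19 (SE 0.341), from a median of 5.32 to 7.83. Its relative Ccr1l1 rose by 0.98 (SE 0.224). Ccl5, Ccl6 and Ccl9 were not called, with differences of 0.40, 0.02 and -0.73.

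Among the ligands of CCR2, 1 of 4 rose: Ccl2 (MCP-1), the main monocyte attractant, by 1.05 (SE 0.193). Ccl7, Ccl12 and Ccl8 had differences of 0.01, 0.09 and -0.88 and were not called, and neither was Ccr2 (-0.15). The fractalkine receptor Cx3cr1, a marker of monocytes and macrophages, was the other member besides Cxcl3 whose groups did not overlap. It lay between 4.73 and 6.18 in skin (median 5.33) and between 6.39 and 8.25 in papillomas (median 6.83), a difference of 1.52 (SE 0.146, limma adjusted p = 3.89e-06). Such separation was seen for 3.64% of members and 2.02% of all genes. Its ligand Cx3cl1 (fractalkine), which is anchored in the membrane of epithelial and endothelial cells, rose by 0.74 (SE 0.183). Of 10 macrophage markers 3 rose (median -0.15 over the list), and their mean level was 7.65 to 9.95 in skin and 7.65 to 10.04 in papillomas.

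The largest fall was that of Cxcl13, the B-cell attractant of lymphoid follicles. It ranged from 7.86 to 12.26 in skin (median 10.30) and from 4.15 to 10.94 in papillomas (median 6.65). It fell by 3.06 (SE 0.436, limma adjusted p = 7.96e-05) in all 13 mice, while the ranges overlapped. Ccl19, a CCR7 ligand of lymphoid stroma, fell by 1.96 (SE 0.304, limma adjusted p = 0.000153), from 6.41 to 9.44 in skin (median 8.33) to 4.88 to 7.32 in papillomas (median 5.85). Ccl25, the CCR9 ligand of thymus and gut, rose by 0.28 (SE 0.0825), and its receptor Ccr9 by 0.97 (SE 0.17). The receptors of Ccl19 and Cxcl13 were not called: Ccr7 had a difference of 0.42 and Cxcr5 of 0.19. B-cell markers averaged 4.46 to 5.90 in skin and 4.70 to 5.43 in papillomas.

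Cxcl12 (SDF-1), a stromal ligand, fell by 1.63 (SE 0.309), from 8.65 to 9.97 in skin (median 9.34) to 5.59 to 10.04 in papillomas (median 7.66). Its receptor Cxcr4 rose by 0.77 (SE 0.298, limma adjusted p = 0.0499) in 9 of 13 mice. This call rested on the margin: it was lost when any of 9 mice was left out, without the arrays that stood apart (0.62, adjusted p = 0.117) and in batch 1 alone (0.71, adjusted p = 0.0966). The Cxcl12 scavenger Ackr3 fell by 0.74 (SE 0.126).

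All 3 atypical receptors fell. Ackr2, which takes up inflammatory CC chemokines and is known from lymphatic endothelium and skin, ranged from 6.84 to 9.09 in skin (median 8.13) and from 6.11 to 7.62 in papillomas (median 6.67). It fell by 1.51 (SE 0.184, limma adjusted p = 2.35e-05) in all 13 mice. Ackr1 (DARC), a receptor of venular endothelium and red cells, fell by 1.58 (SE 0.228), from a median of 7.89 to 6.39. Endothelial markers fell too, 4 of 7 of them (median -0.55), as did 2 of 6 markers of lymphatic and node stroma and 2 of 7 fibroblast markers. All 7 skeletal muscle markers also fell (median -3.16), and the part of a different tissue makeup of the samples in these falls was not tested.

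Among epithelial and skin-homing ligands 3 of 8 fell. Ccl20, the keratinocyte ligand of CCR6, fell by 1.41 (SE 0.372), from 5.45 to 9.99 in skin (median 7.89) to 5.25 to 7.51 (median 6.44). Cxcl14, made by normal epidermis, fell by 0.92 (SE 0.262) and Ccl1, a CCR8 ligand, by 0.50 (SE 0.155). Ccr4, a receptor of skin-homing T cells, fell by 1.00 (SE 0.344), and its ligand Ccl17 was not called (-0.57). Cxcl9, an interferon-induced ligand of CXCR3, fell by 1.52 (SE 0.46), whereas Cxcl10 (-0.32), Cxcl11 (-0.24) and Cxcr3 (0.03) were not called. The dendritic cell receptor Xcr1 and its ligand Xcl1 fell by 0.69 (SE 0.256) and 0.38 (SE 0.116). In batch 1 alone Xcr1, Ccr4 and Cxcl14 missed the threshold (adjusted p = 0.0812, 0.0507 and 0.0567). Eosinophil ligands were not called: Ccl11 had a difference of -0.29, Ccl24 of -0.11 and Ccl26 of 0.03. The 26 members that were not called had differences from -0.88 (Ccl8) to 0.42 (Ccr3).

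**Figure D2:**
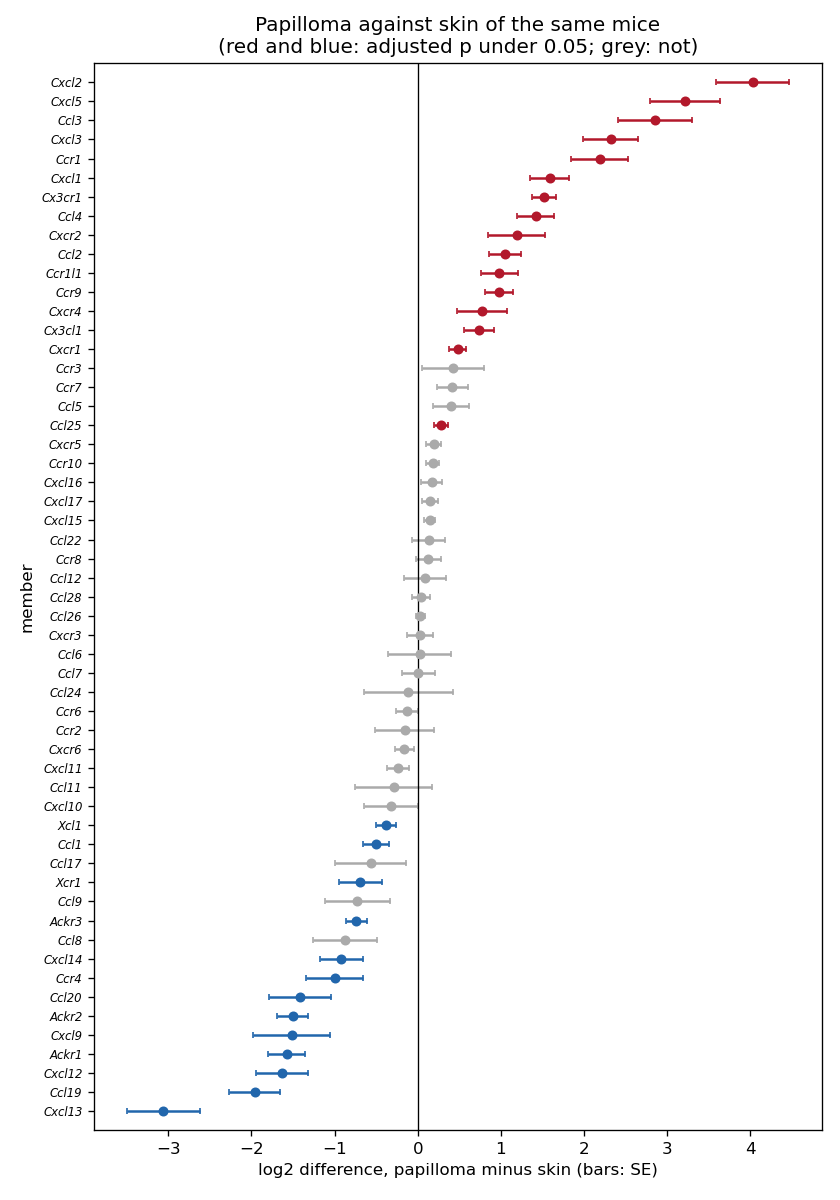
Log2 difference between papilloma and skin of the same 13 mice (horizontal axis) for each of the 55 members (vertical axis), with SE bars; red and blue points are members with an adjusted p under 0.05. The 16 red points run from Ccl25 at 0.28 to Cxcl2 at 4.03, and the 13 blue points from Xcl1 at -0.38 to Cxcl13 at -3.06.

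Of 30 further genes of the chemokine pathway, 9 rose and 6 fell. Il1b, an inducer of CXCR2 ligands, rose by 3.06 and Ppbp, the platelet CXCR2 ligand, by 3.09. Tnf rose by 0.70 and Ccrl2, a non-signalling receptor that binds chemerin, by 1.12. Dpp4, a peptidase that trims chemokines, fell by 1.18, and the arrestin gene Arrb1 fell by 0.76.

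In 8 mice SCC carcinomas could be set against papillomas of the same animal. No member passed the test, at a background of 0.202% of all genes, and 8 members had an unadjusted limma p under 0.05. The 2 largest differences were both rises of CXCR2 ligands. Cxcl3 ranged from 7.91 to 10.09 in SCC carcinomas (median 9.44) and was 1.73 above papillomas (SE 0.376, limma adjusted p = 0.116), higher in 8 of 8 mice. Cxcl5 ranged from 7.81 to 10.05 (median 9.12) and was 1.42 above (SE 0.312, limma adjusted p = 0.12), also in 8 of 8 mice. Without the arrays that stood apart both passed the limma threshold, Cxcl3 at 1.81 (adjusted p = 0.0397) and Cxcl5 at 1.67 (adjusted p = 0.0425). These arrays were picked by the same values, so this is no independent support. Cxcl1 and Cxcl2 had smaller differences of 0.74 and 0.42, Cxcr2 of 0.34 and Ccl3 of 0.61. Neutrophil markers averaged 8.54 to 10.23 in SCC carcinomas, and 0 of 6 were called against papillomas.

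Spindle carcinomas, in which tumour cells have lost the epithelial form, had lower Cxcl1, Cxcl2 and Ccl20 and higher fractalkine, Cx3cr1, Ccl7 and Ccl12 than papillomas of the same 9 mice. Of the members, 12 (21.8%) were called, 6 in each direction, against 23.8% of all genes (12.6% higher and 11.2% lower). The papillomas are the same arrays as in the comparison with skin, so the 2 sets of differences are not independent. All 8 keratinocyte markers fell in this comparison (median -2.81).

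Cx3cl1 ranged from 7.27 to 9.51 in papillomas (median 7.74) and from 8.68 to 10.35 in spindle carcinomas (median 9.76). It rose by 1.81 (SE 0.244, limma adjusted p = 0.00565) in 9 of 9 mice, and the groups overlapped only at their ends. Cx3cr1 ranged from 5.86 to 10.47 in spindle carcinomas (median 9.19) and rose by 1.73 (SE 0.442, limma adjusted p = 0.0223) in 8 of 9 mice. The ligand and its receptor were thus both higher in this group than in papillomas. The monocyte ligands Ccl12 (1.38, SE 0.433) and Ccl7 (1.03, SE 0.32) rose, and Ccl2 ranged from 9.08 to 11.23 (median 10.21) against 7.69 to 10.80 in papillomas (median 9.22) without passing the test. Ccl17, a ligand of CCR4 made by dendritic cells and macrophages, rose by 1.10 (SE 0.238) and Cxcl16, the membrane-bound ligand of CXCR6, by 0.48 (SE 0.117). Macrophage markers moved with these genes: 6 of 10 rose (median 1.19), and their mean level was 8.79 to 10.63 in spindle carcinomas. The part of macrophage content in these rises was not tested.

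Cxcl2 spread from 4.74 to 10.48 in spindle carcinomas (median 6.49) and fell by 2.25 (SE 0.725, limma adjusted p = 0.0486) in 7 of 9 mice. The 2 mice at the top were 1949 (10.48), whose spindle carcinoma stood apart, and 1815 (9.50). Ccl20 was low in every spindle carcinoma, 4.56 to 5.66 (median 4.99), and fell by 1.38 (SE 0.263, limma adjusted p = 0.00936) in 9 of 9 mice. Cxcl1 fell by 1.25 (SE 0.332), Ccr9 by 0.94 (SE 0.287), Ackr2 by 0.69 (SE 0.133) and the T-cell receptor gene for Ccl1, Ccr8, by 0.46 (SE 0.13). Cxcr2 spread from 5.47 to 11.06 (median 8.16) and was not called. Of the 6 listed neutrophil markers only S100a8 and S100a9 fell, by 2.32 and 2.30, and the other 4 were not called. Keratinocyte markers fell in the same comparison, and which cells account for the fall of S100a8 and S100a9 was not tested.

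The count of 12 was not stable. The counts that follow are given without the share of all genes called in the same setting, so they are no comparison with other genes. Without the arrays that stood apart it was 25, 16 higher and 9 lower, which then included Cxcl2 (-3.23), Cxcr2 (-2.53), Cxcl3 (-2.09), Cxcl12 (2.06), Ccl9 (2.51), Ccl6 (1.94) and Ccl2 (1.35). In batch 1 alone it was 5, which here means without mouse 1664, the only batch 2 mouse with a spindle carcinoma. Without carcinomas titled RegCA, a term the labels do not define, it was 0. That setting kept only mice 1383, 1407, 1509, 1664 and 1815, fewer than the main fit. Leaving out single mice gave 5 to 18 calls: 5 without 1509, 1664 or 1984, 6 without 1383 or 1407, and 7 without 2022. Of 30 pathway genes 8 rose and 3 fell, among them the chemerin receptor Cmklr1 (1.55), Rgs16 (1.58) and Dpp4 (-1.26).

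**Figure D3:**
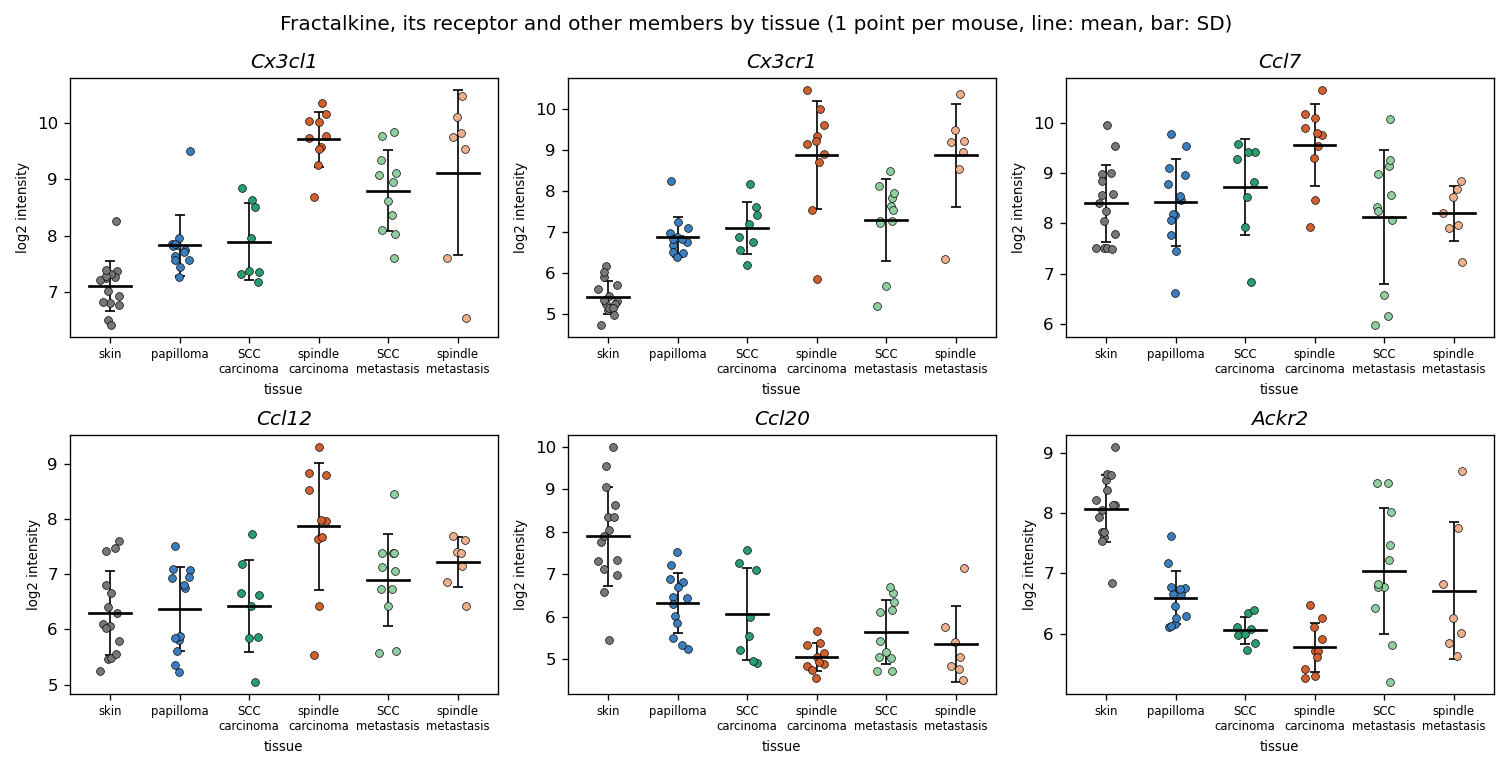
Log2 intensity (vertical axis) of Cx3cl1, Cx3cr1, Ccl7, Ccl12, Ccl20 and Ackr2 in 6 tissues (horizontal axis); each point is the mean of 1 mouse, lines are group means and bars are SD. The mean of Cx3cl1 is 7.10 in skin and 9.71 in spindle carcinomas, and that of Ccl20 is 7.89 in skin and 5.06 in spindle carcinomas.

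Spindle and SCC carcinomas were compared within WT mice, 6 with spindle and 8 with SCC tumours, 5 of them with both. With mouse as a random block (consensus correlation -0.1), 4 members (7.27%) were called against 7.56% of all genes. Cx3cl1 was higher by 1.63 in spindle tumours (SE 0.323, limma adjusted p = 0.0162), with SCC carcinomas between 7.18 and 8.85. Cxcl1 was lower by 1.97 (SE 0.422, limma adjusted p = 0.0189), with SCC carcinomas between 7.22 and 10.23 (median 8.81) and spindle carcinomas of both genotypes between 5.91 and 7.53 (median 6.46). The mean of Ccl3 was 10.79 ± 0.68 (SD, n = 8) in SCC and 9.44 ± 0.73 (SD, n = 6) in spindle tumours, and the difference was -1.35 (SE 0.36, limma adjusted p = 0.0373). Ccl4 differed by -0.94 (SE 0.258, limma adjusted p = 0.042). Cxcl2 (-2.29), Cxcl3 (-2.32), Cxcl5 (-1.78) and Cxcr2 (-1.90) had values below 0 but were not called.

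The counts of members in this paragraph lack the share of all genes called in the same setting, so they are no comparison with other genes. Without the arrays that stood apart, 16 members were called between the carcinoma types, and these 4 passed: Cxcl3 (-3.05), Cxcl2 (-2.84), Cxcl5 (-2.46) and Cxcr2 (-2.41). Leaving out mouse 1949, which held the divergent spindle carcinoma, gave 15. With mouse as a fixed block, which uses only the 5 mice with both tumours, 0 members were called, and the differences were 1.21 for Cx3cl1, -2.09 for Cxcl1, -1.47 for Ccl3 and -0.77 for Ccl4 (adjusted p = 0.468, 0.468, 0.468 and 0.479). Without RegCA carcinomas the spindle group held only mice 1383 and 1815. None of the 4 calls then passed (Cx3cl1 at 1.80, adjusted p = 0.0541, and the others from 0.186 to 0.272). Ccl12 (2.11) and Cxcr2 (-1.74) were called instead, on these few spindle mice. The count was 0 without mouse 1508 or 1984, 1 without 1383 or 2022, and 2 without 1456 or 2104. Of the neutrophil markers 0 of 6 were called here (median -1.15), all 8 keratinocyte markers were lower (median -3.28) and 1 of 10 macrophage markers, Itgam, was higher (0.83). Of 30 pathway genes, Tpst2 (0.46), which sulphates tyrosines of chemokine receptors, Arrb2 (0.80) and Rgs1 (1.24) were higher and none was lower.

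SCC metastases were set against SCC carcinomas of the same 8 mice. Fractalkine and Ccl5 were higher and Cxcl5 lower in metastases, 3 members called (5.45%) against 4.55% of all genes. Cx3cl1 ranged from 7.18 to 8.85 in carcinomas (median 7.66) and from 7.60 to 9.84 in all SCC metastases (median 8.95). It was higher by 1.21 (SE 0.225, limma adjusted p = 0.0215) in 7 of 8 mice. The highest value, 9.84, was that of mouse 1949, whose SCC metastasis stood apart and whose keratinocyte markers averaged 5.61, the low end of a range of 5.61 to 11.39 in SCC metastases. Ccl5 (RANTES), made by T cells and NK cells, ranged from 6.24 to 7.25 in carcinomas (median 6.55) and from 6.39 to 9.86 in all SCC metastases (median 8.08). It rose by 1.13 (SE 0.242, limma adjusted p = 0.0347) in 8 of 8 mice. Cxcl5 fell by 1.04 (SE 0.229, limma adjusted p = 0.0381) in 8 of 8 mice. Cxcl2 (-1.62, adjusted p = 0.0513), Cxcl1 (-1.09, adjusted p = 0.0612) and Ccl2 (-1.21, adjusted p = 0.0694) missed the limma threshold by little, as did Cxcl13 with a higher value (2.17, adjusted p = 0.0697).

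Markers of lymphocytes moved with this comparison, as 3 of 8 B-cell markers and 1 of 7 T-cell markers rose. B-cell markers averaged 4.76 to 5.58 in SCC carcinomas and 5.89 to 8.97 in SCC metastases, ranges that did not overlap. The part of host lymphoid tissue in the rise of Ccl5 was not tested. The 3 calls held without the arrays that stood apart, at 1.21 for Cx3cl1, 1.27 for Ccl5 and -0.79 for Cxcl5 (adjusted p = 0.0471, 0.0359 and 0.0191). All 3 were lost with lymph node metastases alone, where the differences were 1.15 for Cx3cl1, 1.59 for Ccl5 and -0.67 for Cxcl5. They were also lost in batch 1 alone, which here means without mouse 1456, the only batch 2 mouse in this comparison. Without the mouse block 1 was called, and leaving out 1456 or 1984 gave 0 calls, 1383 or 2022 gave 1.

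For spindle metastases against spindle carcinomas of the same 7 mice, no member and no gene at all was called by limma (0% of all genes). Without adjustment, 17 members had a limma p under 0.05, and the share of all genes under it is not given here. The 2 largest differences were Cxcl13, 2.69 higher in metastases (SE 0.866, limma adjusted p = 0.317; higher in 5 of 7 mice), and Cxcl5, 2.01 lower (SE 0.731, limma adjusted p = 0.33; lower in 5 of 7). Cxcl13 means of spindle metastases lay between 8.31 and 11.51 (median 9.24), against 5.35 to 11.15 in carcinomas (median 7.66). Ccl2 was lower by 1.55 (SE 0.352) in 7 of 7 mice and Cxcr5 higher by 1.55 (SE 0.488) in 7 of 7, at adjusted p of 0.279 and 0.315 in limma. B-cell markers averaged 5.65 to 10.01 in these metastases, with 0 of 8 called.

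No member was called by limma between spindle and SCC metastases (background 0.0693%), while 11 members had an unadjusted limma p under 0.05. The largest difference was in Ccl24 (eotaxin-2), an eosinophil attractant that macrophages make. It spread from 3.96 to 10.63 in SCC metastases (median 6.84) and stayed between 3.82 and 5.50 in spindle metastases (median 5.05), a difference of -2.32 (SE 0.911, limma adjusted p = 0.193). Cxcl15 followed at -1.98 (SE 1.02), with the sites of the metastases described next. Ccl3 (-1.85), Cxcr2 (-1.92) and Cxcl3 (-1.70) were also lower without passing. Without the arrays that stood apart 4 were called, namely Cxcl3 (-3.00), Cxcl5 (-2.75), Ccl3 (-2.07) and Cxcl1 (-1.62), and 9 were called with lymph node metastases alone. The share of all genes called in these settings is not given here, so these counts are no comparison with other genes. With single mice left out the count was 1 without 1509 and 0 otherwise.

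**Figure D4:**
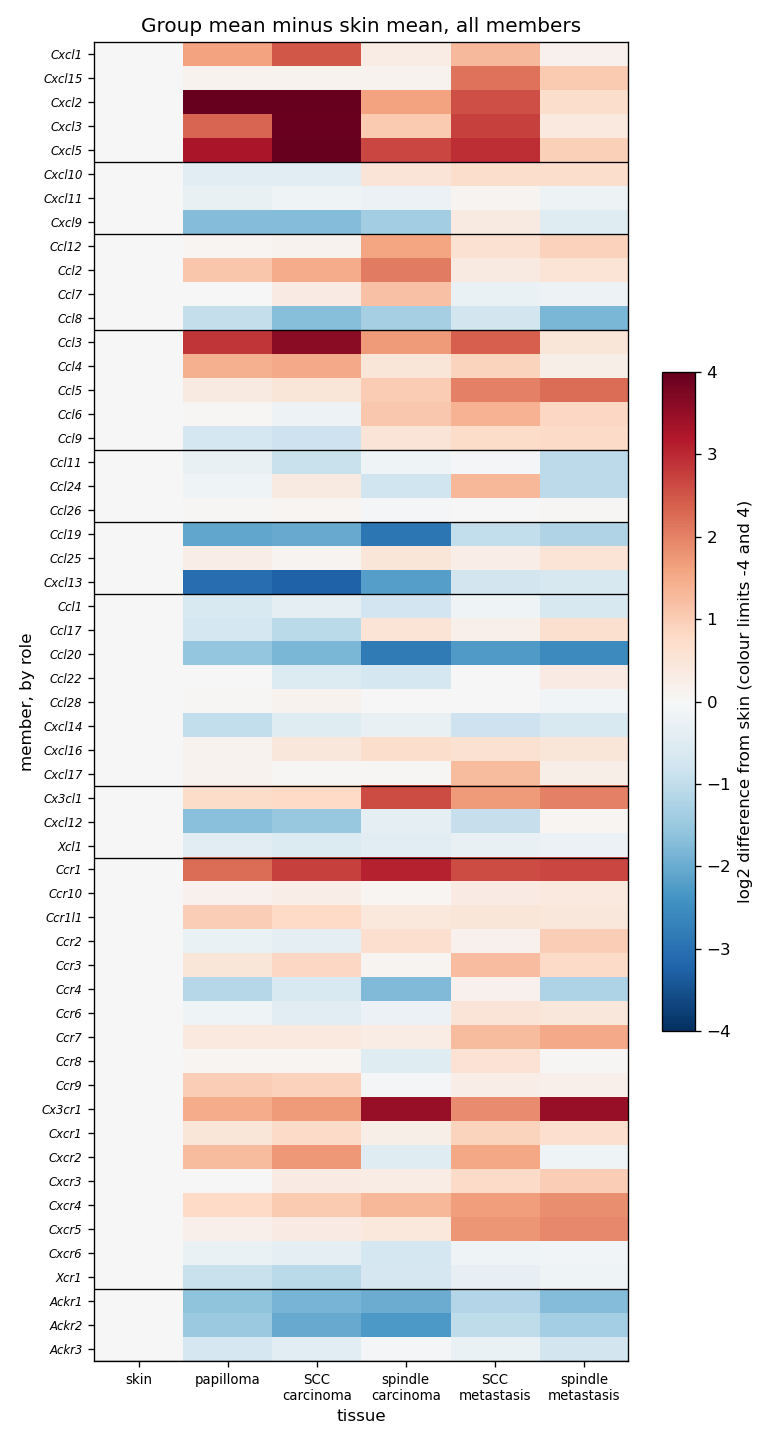
Group mean minus skin mean in log2 units (colour, with limits at -4 and 4 that Cxcl2 and Cxcl5 exceed) for all 55 members (rows, by role, with lines between roles) in 6 tissues (columns). CXCR2 ligands other than Cxcl15 are red in papilloma and SCC columns, and the 3 atypical receptors are blue in the papilloma column.

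Over the 6 groups, the highest mean lay in skin for 13 members, in papilloma for 2, in SCC carcinoma for 9, in spindle carcinoma for 7, in SCC metastasis for 11 and in spindle metastasis for 13. All 4 CXCR2 ligands Cxcl1, Cxcl2, Cxcl3 and Cxcl5 were highest in SCC carcinoma, with means of 8.78 ± 0.98, 10.05 ± 1.12, 9.23 ± 0.86 and 9.11 ± 0.82 (SD, n = 8). Their next group was papilloma for Cxcl1, Cxcl2 and Cxcl5, with means of 7.89 ± 0.78, 9.47 ± 1.33 and 7.87 ± 1.49 (SD, n = 13), and these neighbours overlapped. Cxcr4 had its lowest mean in skin (7.83 ± 0.70, SD, n = 15) and its highest in spindle metastasis (9.69 ± 0.72, SD, n = 7). These orders are descriptions over groups that share mice.

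By site, metastases in lung stood out for Cxcl15 (lungkine), a CXC ligand of lung epithelium. In lymph node metastases of 14 mice it lay between 3.27 and 4.68 (median 3.68). In lung metastases it was 10.91 in mouse 1383, 9.49 in 1456, 5.88 in 1509, 11.82 in 1537, 10.61 in 1616, 10.52 in 1664, 11.75 in 1717, 3.90 in 1949 and 9.94 in 1984. Thus 8 of these 9 lung values lay above every lymph node value. The mixed lung metastasis of mouse 1508, left out of the comparison of sites, had a Cxcl15 level of 3.42, inside the lymph node range. Liver values were 3.65, 3.79 and 3.84, spleen values 3.47, 3.63 and 3.90, and thymus values 3.27, 3.51 and 3.62.

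Lung markers moved with Cxcl15. Their mean level was 4.31 to 4.59 in lymph node metastases, and in lung metastases 10.73 in mouse 1383, 9.20 in 1456, 7.17 in 1509, 10.88 in 1537, 9.54 in 1616, 9.91 in 1664, 9.84 in 1717, 4.62 in 1949 and 9.32 in 1984. The mice lowest in Cxcl15, 1949 and 1509, were also the lowest in lung markers. The part of host lung tissue in the Cxcl15 level was not tested. Within the 8 mice that had both sites, with histology as a covariate, the fitted difference of Cxcl15 was 7.0 (SE 0.891, limma adjusted p = 0.181). No gene was called (0%), while 7 members had an unadjusted limma p under 0.05. In mice 1664, 1949 and 1984 the lung metastasis was SCC and those of lymph node were spindle. These mice set only the histology term, so the fitted lung differences rest on the other mice. Counted over all 8 mice, Cxcl15 was higher in lung in 7. Cxcl15 was called in the fit over 5 sites (6.91, SE 0.724, limma adjusted p = 0.00094), without the arrays that stood apart (7.27, adjusted p = 0.0125) and without mouse 1949 (7.0, adjusted p = 0.000903). Leaving out mouse 1949 could change the histology term and the spread, but not the lung estimate. Lymph node values lay near the low end of the array's range and carry no detection call, so the size of this difference is one of log2 intensities and is not a measured fold of transcript. Cxcl17, a mucosal ligand, had a fitted difference of 2.34 (SE 0.614, limma adjusted p = 0.533) and was higher in lung in 8 of 8 mice. It ranged from 5.45 to 10.58 in lung (median 7.32) and from 5.13 to 7.39 in lymph node (median 5.45).

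**Figure D5:**
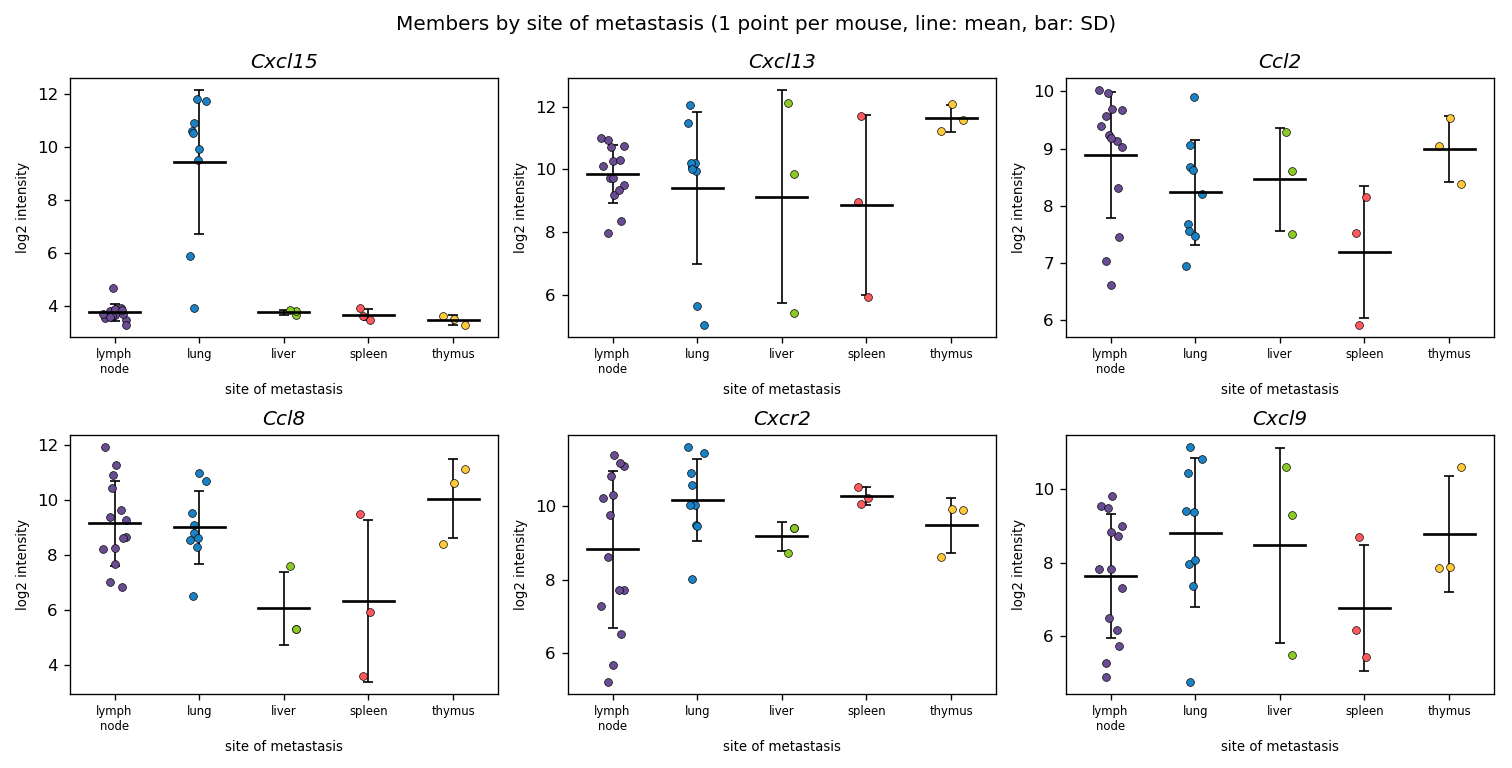
Log2 intensity (vertical axis) of Cxcl15, Cxcl13, Ccl2, Ccl8, Cxcr2 and Cxcl9 in metastases of 5 sites (horizontal axis); each point is the mean of 1 mouse, lines are site means and bars are SD. Cxcl15 lies between 3.27 and 4.68 in lymph node and reaches 11.82 in lung, and Cxcl13 lies between 11.21 and 12.09 in the 3 thymus metastases.

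Liver, spleen and thymus metastases came from 3 mice each. No member was called against lymph node at any of these sites in the limma fit over 5 sites, where 3.47% of all genes were called for liver, 0.149% for spleen and 0% for thymus. Unadjusted p under 0.05 was reached by 4, 8 and 0 members. In liver the 2 largest differences were Ccl19 (2.08, SE 0.838, limma adjusted p = 0.218) and Ccl8, a monocyte ligand of skin and tumours (-1.92, SE 1.04, limma adjusted p = 0.368). Ccl19 was 7.69 in mouse 1383, 6.45 in 1664 and 11.37 in 1815. Mouse 1815 was also the high one for Cxcl13 (12.11), Cxcr5 (8.28) and Ccr7 (10.41), and its B-cell markers averaged 9.67 against 5.22 and 5.03 in the other two liver samples.

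In spleen the 2 largest differences were Cxcr2 (3.0, SE 0.898, limma adjusted p = 0.177) and Ccl8 (-2.86, SE 1.08, limma adjusted p = 0.282). Cxcr2 was 10.23, 10.06 and 10.53 in the spleen samples, within the lymph node range of 5.21 to 11.40. Neutrophil markers averaged 9.88 to 10.66 there, against 5.42 to 9.99 in lymph node, and their part in the Cxcr2 difference was not tested. The CCR2 ligands Ccl2 (-2.49) and Ccl7 (-2.60) were also lower in spleen in all 3 mice without passing. In thymus the 2 largest differences were Cxcl13 (1.84, SE 1.14) and Ccl19 (1.72, SE 0.841), both at a limma adjusted p of 1.0. Cxcl13 was 11.57, 12.09 and 11.21 there and lay above all lymph node metastases. It was the only member whose thymus and lymph node groups did not overlap (1.82% of members against 0.24% of all genes).

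HrasKO and WT mice were compared within skin, papilloma and spindle carcinoma with batch as a covariate, and no member was called in any of them (0.00533%, 0.00533% and 0% of all genes). Unadjusted limma p under 0.05 was reached by 6, 0 and 4 members. In skin the largest differences were Ccl17 (1.95, SE 0.486, limma adjusted p = 0.26) and Ccl24 (1.68, SE 0.537, limma adjusted p = 0.298). Ccl17 ranged from 7.94 to 10.29 in 6 HrasKO skins (median 8.89) and from 5.37 to 8.48 in 9 WT skins (median 7.18), so the groups overlapped. In papilloma they were Ccl17 (0.97, SE 0.569) and Cxcl1 (-0.76, SE 0.414), both at a limma adjusted p of 1.0. In spindle carcinoma they were Cxcl2 (-1.76, SE 1.15) and Ccl3 (-1.63, SE 0.407), both at 0.991 in limma. Mouse 1664 was the only batch 2 mouse with a spindle carcinoma, so the batch term took up its value. Both differences therefore rest on the other HrasKO mice. Ccl3 was 7.64 in HrasKO mouse 1407, 7.64 in 1509, 8.15 in 1537 and 8.76 in 1664, and ranged from 8.70 to 10.45 in WT mice (median 9.21), so that only the value of mouse 1664 entered the WT range.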

How the data were processed

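RNA of 112 samples was measured on Affymetrix arrays. The deposited values are log2 intensities made by the authors with RMA, per the submitters' processing notes. The RMA version, any batch correction and the genome build were not given in the sources used here. Of 28204 probe sets, 21141 had 1 symbol, 1881 several and 5182 none. Values ran from 2.10 to 13.9, array medians from 5.89 to 6.36. The number of arrays limits precision.

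Values were averaged per mouse and group and tested by lmFit and eBayes of limma 3.58.1 (R 4.3.3; two-sided p). Groups of the same mice were paired by mouse as a fixed block, the animal identity coming from the labels. Spindle and SCC tumours used mouse as a random block (duplicateCorrelation); spindle against SCC metastases also had a genotype covariate. Batch 1 held 13 mice and batch 2 held 2. Fits were tested on simulated data. Each comparison names up to 6 called rises and 6 falls, the 2 largest in full, or the 2 largest differences if none, plus ligand groups with their receptors. Members and lists were chosen with earlier results of these data known.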

Additional observations from a re-analysis of the deposited data

Results flagged for a closer look

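Dixon's criterion was applied to 17 genes in SCC carcinomas, spindle carcinomas, spindle metastases and lung metastases, 68 tests that share mice. By it, 7 values lay far from the rest of their group. Chance alone gives about 1 in 20 per test, but these tests are not independent, so the count of 7 is not set against it. Mouse 1815 was the high one for all 4 inducible CXCR2 ligands in spindle metastases, with Cxcl1 at 8.15 (next 6.63), Cxcl2 at 9.68 (next 6.11), Cxcl3 at 7.07 (next 5.64) and Cxcl5 at 7.96 (next 5.49). Its neutrophil markers averaged 8.74 in spindle metastases, inside the range of 6.00 to 11.01 of these mice. The mean of mouse 1815 includes its kidney metastasis, with Cxcl1 at 9.22, Cxcl2 at 11.47, Cxcl3 at 9.84 and Cxcl5 at 10.16. Mouse 1949 had a Cxcl3 level of 10.50 in its spindle carcinoma (next 7.85), where its keratinocyte markers averaged 11.45. Mouse 1383 was low for Cxcl2 in SCC carcinoma, at 7.62 against 9.71 for the next. Mouse 1537 was high for Cxcl17 in spindle metastases, at 7.08 against 5.47, and its metastases there were from lymph node and lung.

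Tumours of mixed histology entered no comparison, and Cxcl2 and Cx3cl1 were set against skin in them. In mixed carcinomas Cxcl2 was 8.68 in mouse 1949, 10.62 in 1706 and 8.19 in 1616, against 7.77 in the highest skin, but it was 4.75 in the mixed metastasis of mouse 1508. Cx3cl1 was 9.18, 8.94 and 10.30 in the same mixed carcinomas and 9.14 in that metastasis, against 8.25. Ccr1, Cxcl5, Cx3cr1, Ccl3, Ccl4, Ccl12 and Ccl25 also lay above the highest skin in all 4 mixed tumours. The lowest mixed tumour was close to the highest skin for Ccl3 (9.18 against 9.175), Ccl25 (6.685 against 6.666) and Ccl12 (7.67 against 7.611). The share of all genes that lay above the skins in this way is not given here, so the list is a description.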

How the results depend on the processing

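The 29 calls between papilloma and skin stayed between 26 and 30 with each mouse left out. Other counts moved. Without the arrays that stood apart they were 2 (SCC carcinoma against papilloma), 25 (spindle carcinoma against papilloma), 16 (spindle against SCC carcinoma), 4 (spindle against SCC metastasis) and 1 (lung). In batch 1 alone they were 5, 2 and 0 for spindle against papilloma, spindle against SCC carcinoma and SCC metastasis. Batch 1 alone drops only mouse 1664 in the first of these and only mouse 1456 in the others. It is thus no setting apart from leaving out those mice. Without RegCA carcinomas the carcinoma counts were 0 and 2, the latter 2 being other members than the 4 called. Both fits then had fewer mice with spindle carcinomas. Individual arrays gave 7 (spindle against SCC carcinoma), 8 (SCC metastasis), 9 (spindle against SCC metastasis), 2 (lung) and 2 (spleen). The filter on low values gave 5 for SCC metastasis and 1 between metastases. With the mouse as a fixed block the carcinoma types gave 0; with no block, SCC metastasis gave 1 and lung 1. Lymph node metastases alone gave 0 for SCC metastasis and 9 between metastases, no genotype covariate 1, and the 5-site fit 1 for lung. Mice left out gave 0 to 0, 5 to 18, 0 to 15, 0 to 3, 0 to 0, 0 to 1 and 0 to 1 in report order from SCC carcinoma to lung, and 0 to 0 elsewhere. Single results were followed for the called members, or for the 2 largest differences where none was called. Among these no direction reversed, 146 results lost a call and 10 gained one. The other 1203 kept their state, which was called for some and not called for others. The causes were not tested. Outside lung, Cxcl15 lies near the low end of the array's range.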

Other observations

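Single metastases from kidney (mouse 1815) and from the site labelled dorsal (mouse 2104) entered no comparison of sites. The kidney metastasis was part of the spindle metastasis group and the dorsal one of the SCC metastasis group. In the kidney metastasis Cxcl12 was 10.998, above the lymph node range of 7.37 to 10.35, and Cxcl13 was 11.75, above every lymph node value. Its neutrophil markers averaged 10.45, and its keratinocyte markers 5.02. In the dorsal metastasis Cxcl13 was 5.14 and Cxcl12 5.74, both below their lymph node ranges, and keratinocyte markers averaged 11.39. Cxcr2 was 11.37 in kidney and 11.45 at the dorsal site, against 5.21 to 11.40 in lymph node.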
